A study of Homo sapiens with 30 samples.

Results

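The 7 genes described here are CYP1B1 and CYP1A1, xenobiotic-metabolizing cytochromes P450, with the aryl hydrocarbon receptor AHR, its partner ARNT, its repressors AHRR and TIPARP, and the quinone reductase NQO1. They were picked by name from a table of raw read counts that holds 39359 genes. CYP1B1 was chosen by its measured level: it lay below both wild type and RW mutant p53 in p53 TM cells at 24 h. Its values in those 24 h groups are therefore given as a description, with no test. All 7 genes passed the filter on low counts.

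AHR is a ligand-activated transcription factor that waits in the cytoplasm in a complex with HSP90. With a ligand bound it enters the nucleus, pairs with ARNT and binds xenobiotic response elements, which share the core GCGTG, at genes such as CYP1A1 and CYP1B1. AHRR and TIPARP are themselves induced by the receptor and then restrain it. In lung epithelium the pathway is known for its activation by components of tobacco smoke, some of which CYP1A1 and CYP1B1 convert to reactive metabolites.

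The cells were H1299, a lung carcinoma line without p53 of its own, transiently transfected and sorted for GFP. pGFP cultures carried a vector with GFP alone, and the others carried GFP together with p53, either the wild type (p53 WT), the RW mutant with 1 altered codon (p53 RW), or p53 with an O6-methylguanine on the template strand of that codon (p53 O6-meG). The p53 TM cultures carried the p53 O6-meG vector and were treated with O6-benzylguanine (O6-bzG, 10 µM), an inhibitor of the repair protein AGT, from 1 h before transfection. They were the only ones to receive O6-bzG, so a direct effect of the compound and an effect through p53 cannot be told apart in any comparison of p53 TM. Expression of p53 was ectopic in every p53 group, and all cells came from this line.

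RNA was sequenced at 6 h and 24 h in biological triplicate, 30 libraries in all, with 32302699 to 71950532 reads counted on genes. Labels of 2 libraries at 6 h, both replicate 2, contradict themselves. In each, the first part of the title, which is also the column name of the counts, gives p53 TM or p53 O6-meG. The part of the title in parentheses and the genotype field give the other. For these 2 libraries, "titled" and "by title" refer to the first part of the title only. They were left out of the groups, which leaves p53 TM and p53 O6-meG with n = 2 at 6 h and 28 grouped libraries. CDKN1A and MDM2, direct targets of p53, served as a check of the other labels at 6 h. CDKN1A stood at 255 ± 11.1 CPM (SD, n = 3) with p53 WT and 265 ± 5.68 CPM (n = 2) with p53 O6-meG, against 40.0 ± 5.17 CPM (n = 3) with pGFP, 42.2 ± 4.52 CPM (n = 3) with p53 RW and 61.9 ± 5.63 CPM (n = 2) with p53 TM. MDM2 stood at 1297 CPM with p53 WT and 317 CPM with p53 TM. The library titled p53 TM but with the p53 O6-meG genotype held 50.2 CPM of CDKN1A, and its counterpart 250 CPM. Transcripts of KRT8, KRT18 and VIM, which H1299 cells express, summed to between 2354 and 4480 CPM, while markers of leukocytes, endothelium and fibroblasts each summed to at most 2.48 CPM, and PTPRC, a leukocyte marker, reached at most 0.0499 CPM.

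Promoter sequences were available for 6 of the 7 genes in RefSeq (GRCh38.p14) and are shown for 3 genes known to be induced by the receptor. Each sequence is the 250 bases before a start site, 5′ to 3′ on the gene's strand, with matches to the 5-base core GCGTG, or to CACGC for the opposite strand, in capitals. The CYP1A1 window is chr15:74725529-74725778 on the minus strand, the first TIPARP window chr3:156674340-156674589 on the plus strand, and the first AHRR window chr5:321464-321713 on the plus strand.
CYP1A1: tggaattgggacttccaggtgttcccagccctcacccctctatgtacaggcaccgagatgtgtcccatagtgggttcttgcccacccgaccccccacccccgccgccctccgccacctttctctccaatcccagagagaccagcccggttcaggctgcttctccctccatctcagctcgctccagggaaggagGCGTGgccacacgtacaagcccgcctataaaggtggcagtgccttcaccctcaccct
TIPARP: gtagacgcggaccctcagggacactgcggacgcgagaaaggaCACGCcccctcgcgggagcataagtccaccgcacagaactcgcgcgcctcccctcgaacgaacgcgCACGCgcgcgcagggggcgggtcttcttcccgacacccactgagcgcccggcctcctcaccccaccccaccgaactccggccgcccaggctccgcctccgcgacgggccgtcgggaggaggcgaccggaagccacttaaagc
AHRR: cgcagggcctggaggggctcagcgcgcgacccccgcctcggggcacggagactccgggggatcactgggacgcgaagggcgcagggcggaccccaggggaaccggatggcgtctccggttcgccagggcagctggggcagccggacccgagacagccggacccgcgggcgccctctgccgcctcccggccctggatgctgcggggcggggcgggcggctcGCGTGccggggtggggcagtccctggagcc
The CYP1A1 window held 1 match, ending 52 bases before the start. The TIPARP window shown held 2, both on the opposite strand, ending 203 and 137 bases before the start, and the AHRR window shown held 1, ending 25 bases before it. At other start sites, the 2 further TIPARP windows held no match, and a second AHRR window held 2, ending 242 and 37 bases before its start. The windows of AHR, ARNT and NQO1 held no match in these 250 bases. Among 35116 windows of the same length, 32.2% held at least 1 match, so a match is common and describes letters, not a site in use.

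Per kilobase of merged exons, NQO1 was the most abundant of the 7 in pGFP cells at 24 h, at 56.5 CPM per kb. NQO1 reduces quinones and is induced through both AHR and NRF2. TIPARP, a mono-ADP-ribosyltransferase, followed at 23.4 CPM per kb, and ARNT at 8.42 CPM per kb. CYP1B1 stood at 2.77, AHR at 1.54 and AHRR at 0.840 CPM per kb. CYP1A1 was close to the limit of these libraries, at 0.403 CPM per kb, with 19 to 79 counts in each library. CPM elsewhere are counts relative to the TMM-scaled library total, without division by length.

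CYP1B1 (ENSG00000138061.11, chr2:38066973-38109902, minus strand in GENCODE v44 on hg38), which hydroxylates oestrogens and polycyclic aromatic hydrocarbons, was lowest in p53 TM cells at both times. At 24 h the p53 TM libraries held 11.4, 11.8 and 11.3 CPM. The p53 WT libraries held 18.0, 20.9 and 22.2 CPM, the p53 RW libraries 15.4, 19.4 and 17.5 CPM. The p53 O6-meG libraries, which carry the same vector without the inhibitor, held 15.1, 18.9 and 20.5 CPM, and the pGFP libraries 14.1, 19.2 and 16.8 CPM. Thus the highest p53 TM library, at 11.8 CPM, stood below the lowest of the other 12 libraries, at 14.1 CPM. The differences that chose the gene were, on the log2 scale, −0.82 against p53 WT and −0.60 against p53 RW. Those from p53 O6-meG (−0.66) and pGFP (−0.54) were not part of the choice but rest on the same p53 TM libraries, so no test is given. Listed in the order p53 TM, p53 WT, p53 RW, p53 O6-meG and pGFP, the group means were 11.5 ± 0.271, 20.4 ± 2.16, 17.4 ± 1.98, 18.2 ± 2.76 and 16.7 ± 2.57 CPM (SD, n = 3). In sorted cells, fewer expressing cells and less RNA per cell cannot be told apart.

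The 6 h libraries did not enter that choice, so a test is given. Its estimate of spread comes from all 28 grouped libraries, those of 24 h included, and the test was chosen with earlier results of these data known. CYP1B1 was 1.62-fold lower in p53 TM than in p53 WT cells, with a log2 difference of −0.70 (SE 0.14, adjusted p = 0.00116, edgeR's quasi-likelihood F-test, Benjamini-Hochberg adjusted). The p53 TM libraries held 15.6 and 13.0 CPM, and the p53 WT libraries 20.2, 25.8 and 23.6 CPM. All 3 p53 RW libraries (20.1, 23.5 and 22.8 CPM), all 3 pGFP libraries (19.8, 22.9 and 20.9 CPM) and both p53 O6-meG libraries (19.9 and 17.3 CPM) also lay above both p53 TM libraries. None of these other 3 differences passed the test across all genes: −0.63 against p53 RW (SE 0.14, adjusted p = 0.0754), −0.57 against pGFP (SE 0.14, adjusted p = 0.135) and −0.38 against p53 O6-meG (SE 0.15, adjusted p = 0.215). With DESeq2's Wald test those against p53 RW and pGFP did pass (adjusted p = 0.00642 and 0.0251), and with the replicate number as a block the one against p53 RW did (−0.57, adjusted p = 0.0285). Between p53 O6-meG and p53 WT at 6 h the difference was −0.32 (SE 0.14, adjusted p = 0.482), although those libraries did not overlap either. With 2 or 3 libraries per group such separation is not a test, and its share over all genes was not counted.

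Neither library with contradictory labels entered these values. The one titled p53 TM held 13.8 CPM of CYP1B1, and the one titled p53 O6-meG held 22.6 CPM. Placed by title, p53 TM was lower than p53 O6-meG by a log2 difference of −0.50 (adjusted p = 0.0102) and than p53 RW by −0.65 (adjusted p = 0.0134). Placed by the genotype field, the difference from p53 O6-meG was 0.0037 (adjusted p = 1) and that from p53 WT was −0.44 (adjusted p = 0.155). The CDKN1A levels of these libraries, 50.2 and 250 CPM, lay near the groups of their titles (61.9 CPM in p53 TM and 265 CPM in p53 O6-meG), and placement by the genotype field took the CDKN1A difference between those groups from −2.10 to −0.64 (adjusted p = 1). Without p53 TM replicate 3 the difference from p53 WT was −0.57 (adjusted p = 0.0585).

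Without O6-bzG, CYP1B1 did not pass any test between vectors. Against pGFP it differed by 0.13 with p53 WT at 6 h (SE 0.12, adjusted p = 0.698), by 0.06 with p53 RW at 6 h (SE 0.12, adjusted p = 1) and by 0.12 with p53 O6-meG at 24 h (SE 0.13, adjusted p = 0.526). From 6 h to 24 h it decreased in pGFP cells by 0.34 on the log2 scale (SE 0.12, adjusted p = 0.029), and with p53 O6-meG it differed by −0.03 (SE 0.14, adjusted p = 0.869). The pGFP decrease did not pass with DESeq2's Wald test (adjusted p = 0.053) or without pGFP 24 h replicate 1, where it was −0.23 (adjusted p = 0.182), and was lost in 6 of the 28 fits that left out 1 library.

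**Figure D1:**
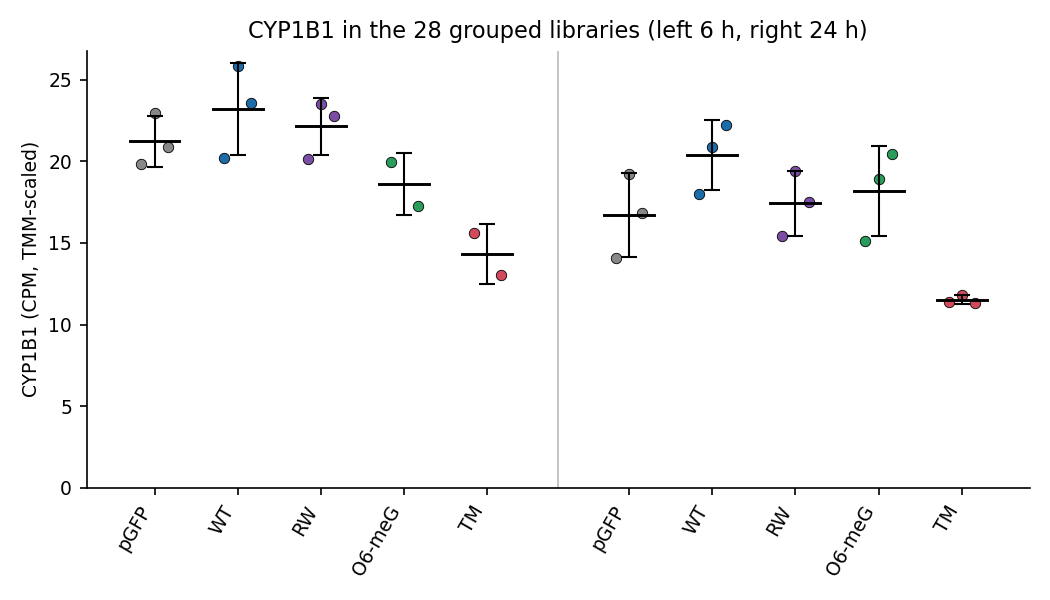
CYP1B1 in CPM (vertical axis, TMM-scaled, starting at 0) in each of the 28 grouped libraries, by vector group, with 6 h left and 24 h right of the line; points are libraries, horizontal lines group means and bars ± SD (n = 2 or 3). At 24 h, where its level chose the gene, the p53 TM libraries (11.3 to 11.8 CPM) sit below all others (14.1 CPM or more). At 6 h both p53 TM libraries (13.0 and 15.6 CPM) sit below all others (17.3 CPM or more).

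CYP1A1 (ENSG00000140465.13, chr15:74719542-74725536, minus strand), the enzyme most often used as a readout of AHR, was lower in p53 TM than in p53 RW cells at 24 h. The p53 TM libraries held 0.601, 0.810 and 0.599 CPM and the p53 RW libraries 1.66, 1.59 and 1.01 CPM, without overlap. The log2 difference was −1.09 (SE 0.27, adjusted p = 0.00712, edgeR). pGFP libraries held 1.38, 1.47 and 1.22 CPM, also above every p53 TM library, with a difference of −1.02 (SE 0.27, adjusted p = 0.0124). Without O6-bzG, p53 O6-meG was also below pGFP by −0.71 (SE 0.27, adjusted p = 0.0462), and p53 WT differed from pGFP by −0.64 (SE 0.26, adjusted p = 0.0615). The p53 O6-meG call was lost in 3 alternatives and in 9 of the 28 fits that left out 1 library, among them its own replicates 1 and 3 (−0.55 and −0.62, adjusted p = 0.173 and 0.136). The p53 TM calls did not pass in a fit of only p53 TM and p53 RW (−1.12, adjusted p = 0.0583) and, against pGFP, without p53 TM replicate 1, p53 TM replicate 3 or pGFP replicate 2 (adjusted p = 0.0604, 0.0532 and 0.0531). Between p53 TM and p53 O6-meG the 24 h difference was −0.31 (SE 0.28, adjusted p = 0.581), with overlapping libraries. At 6 h no comparison of CYP1A1 passed the test.

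NQO1 (ENSG00000181019.12, chr16:69706996-69726668, minus strand) was higher at 24 h with p53 WT and p53 O6-meG than with pGFP, and no comparison of it passed at 6 h. With p53 WT it stood at 192, 229 and 225 CPM, against 148, 182 and 173 CPM with pGFP, a log2 difference of 0.36 (SE 0.14, adjusted p = 0.0413, edgeR). p53 O6-meG gave 177, 240 and 230 CPM, overlapping pGFP, and the same difference of 0.36 (SE 0.14, adjusted p = 0.048). Replicate 1 was the lowest library with pGFP, with p53 WT and with p53 O6-meG, so the overlap compares libraries of different replicate numbers. Both calls passed with the replicate number as a block. Both were lost with DESeq2's size factors (adjusted p = 0.0578 and 0.0743), and leaving out 1 library in turn ended the first in 9 and the second in 21 of 28 fits (adjusted p up to 0.177 and 0.203). In p53 TM cells NQO1 held 160, 230 and 218 CPM, and the difference from pGFP was 0.27 (SE 0.14, adjusted p = 0.258). p53 TM and the other p53 groups differed in NQO1 by −0.11 to 0.13 across both times, and none of these differences passed.

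AHR itself (ENSG00000106546.12, chr7:16916359-17346152, plus strand) was higher than with pGFP at 24 h in the p53 WT, p53 O6-meG and p53 TM groups. pGFP libraries held 13.4, 13.6 and 10.2 CPM. p53 WT libraries held 22.2, 16.6 and 17.7 CPM, p53 O6-meG libraries 21.2, 17.8 and 17.3 CPM and p53 TM libraries 23.9, 15.1 and 16.5 CPM, all above the highest pGFP library. The log2 differences from pGFP were 0.60 (SE 0.16, adjusted p = 0.00426), 0.60 (SE 0.16, adjusted p = 0.00557) and 0.58 (SE 0.16, adjusted p = 0.018), by edgeR. Without p53 TM 24 h replicate 1 the last was 0.35 (adjusted p = 0.212), and without pGFP 24 h replicate 3 it was 0.46 (adjusted p = 0.124). Without p53 WT 24 h replicate 1 the first was 0.43 (adjusted p = 0.0578). With p53 RW the libraries held 14.2, 11.5 and 14.8 CPM, a difference from pGFP of 0.12 (SE 0.16, adjusted p = 1). p53 TM lay above p53 RW by 0.45 (SE 0.16, adjusted p = 0.0748), which passed with the replicate number as a block (0.44, adjusted p = 0.0493). From p53 O6-meG and p53 WT it differed by −0.02 and −0.03.

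Over time AHR declined in pGFP cells by a log2 difference of −0.71 (SE 0.16, adjusted p = 0.000952), with p53 RW by −0.59 (SE 0.16, adjusted p = 0.0047) and with p53 WT by −0.40 (SE 0.16, adjusted p = 0.0373). The p53 WT call was lost with DESeq2's size factors (−0.33, adjusted p = 0.0839). It was also lost without any of 4 p53 WT libraries in turn, 24 h replicates 2 and 3 and 6 h replicates 1 and 2 (adjusted p up to 0.151). The difference between times was −0.20 with p53 O6-meG (SE 0.18, adjusted p = 0.369) and −0.05 with p53 TM (SE 0.18, adjusted p = 0.845). Whether the decline differed between vectors was tested for p53 TM against p53 O6-meG only, and gave 0.15 (SE 0.25, adjusted p = 0.989).

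ARNT (ENSG00000143437.20, chr1:150809713-150876708, minus strand), the shared partner of AHR and of hypoxia-inducible factors, showed no difference between vectors that passed the test at either time. Its group means lay between 43.8 and 46.3 CPM at 6 h and between 51.7 and 61.4 CPM at 24 h. It rose from 6 h to 24 h with pGFP (0.25, SE 0.07, adjusted p = 0.00658), p53 WT (0.45, SE 0.07, adjusted p = 1.89e-05), p53 O6-meG (0.46, SE 0.08, adjusted p = 8.27e-05) and p53 TM (0.36, SE 0.08, adjusted p = 0.000797). With p53 RW the change was 0.17 (SE 0.07, adjusted p = 0.0618).

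AHRR (ENSG00000063438.16, chr5:321714-438291, plus strand), which competes with AHR for ARNT, rose from 6 h to 24 h in every vector group. The log2 rise was 1.07 with pGFP (SE 0.15, adjusted p = 3.74e-06) and 0.96 with p53 RW (SE 0.15, adjusted p = 2.11e-05). It was 1.67 with p53 WT (SE 0.15, adjusted p = 4.44e-09), 1.62 with p53 O6-meG (SE 0.18, adjusted p = 1.58e-07) and 1.45 with p53 TM (SE 0.18, adjusted p = 4.84e-07). In each group all 24 h libraries stood above all 6 h libraries.

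At 24 h AHRR reached 12.9, 14.0 and 9.30 CPM with p53 WT, against 8.33, 7.72 and 7.82 CPM with pGFP, a log2 difference of 0.60 (SE 0.15, adjusted p = 0.0018, edgeR). p53 TM libraries held 8.78, 7.61 and 6.84 CPM, all below p53 WT and overlapping pGFP. The difference from p53 WT was −0.64 (SE 0.15, adjusted p = 0.00225) and from pGFP −0.04 (SE 0.15, adjusted p = 0.93). A fit of only the p53 TM and p53 WT libraries gave −0.64 with adjusted p = 0.061. p53 O6-meG libraries held 11.0, 9.83 and 7.90 CPM, overlapping both p53 WT and p53 TM, and p53 TM differed from them by −0.31 (SE 0.15, adjusted p = 0.196). At 6 h all groups averaged 2.82 to 3.79 CPM and no difference between vectors passed. Both p53 TM libraries (2.69 and 2.95 CPM) were below all libraries with pGFP, p53 WT and p53 RW, but overlapped those with p53 O6-meG (2.73 and 3.54 CPM). The difference from p53 O6-meG was −0.15 (SE 0.20, adjusted p = 0.816, edgeR). The share of all genes that separate in this way was not counted.

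TIPARP (ENSG00000163659.12, chr3:156673235-156706770, plus strand) was the only one of the 7 genes called at 6 h in a comparison without O6-bzG, and it fell with p53 WT. The p53 WT libraries held 69.4, 71.2 and 68.3 CPM at 6 h and the pGFP libraries 100.2, 103 and 97.7 CPM, a log2 difference of −0.53 (SE 0.08, adjusted p = 4.55e-05, edgeR). p53 RW libraries held 100.3, 112 and 101 CPM, within 0.06 of pGFP (SE 0.08, adjusted p = 1). p53 O6-meG libraries held 78.4 and 83.0 CPM, below pGFP by −0.32 (SE 0.09, adjusted p = 0.0505).

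In p53 TM cells at 6 h TIPARP differed from pGFP by 0.04 (SE 0.09, adjusted p = 1). The p53 TM libraries held 115 and 91.3 CPM of TIPARP, spanning the pGFP libraries, and lay above p53 WT by 0.57 (SE 0.09, adjusted p = 8.77e-05) and above p53 O6-meG by 0.36 (SE 0.10, adjusted p = 0.0455). From p53 RW they differed by −0.02 (SE 0.09, adjusted p = 1). The difference from p53 O6-meG depended on single libraries: without p53 TM replicate 1 it was 0.18 (adjusted p = 0.524), and leaving out any of 17 of the 28 libraries in turn took its adjusted p above 0.05. The library titled p53 TM held 100.5 CPM and the one titled p53 O6-meG 69.1 CPM. Placed by title, the difference from p53 O6-meG was 0.41 (adjusted p = 0.00137), and placed by the genotype field it was 0.07 (adjusted p = 1) and that from p53 WT was 0.40 (adjusted p = 0.0981).

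By 24 h TIPARP in p53 TM cells stood with the p53 WT and p53 O6-meG groups. p53 TM libraries held 87.5, 89.2 and 98.3 CPM, p53 WT libraries 77.7, 85.0 and 89.6 CPM, and p53 O6-meG libraries 78.8, 87.3 and 102 CPM. pGFP libraries held 115, 112 and 110 CPM and p53 RW libraries 115 CPM in all 3. p53 TM was below p53 RW by −0.33 (SE 0.08, adjusted p = 0.00908, edgeR) and below pGFP by −0.29 (SE 0.08, adjusted p = 0.02), while p53 WT was below pGFP by −0.42 (SE 0.08, adjusted p = 0.000239) and p53 O6-meG by −0.33 (SE 0.08, adjusted p = 0.00294). Against p53 RW, the value without p53 TM 24 h replicate 1 was −0.30 (adjusted p = 0.0626), and against pGFP it was −0.26 (adjusted p = 0.105). The call against pGFP was also lost without p53 TM replicate 2 or pGFP replicate 1 or 2 (adjusted p = 0.0768, 0.0711 and 0.0565). With the contradictory libraries placed by the genotype field both calls were lost (adjusted p = 0.0806 and 0.12), at log2 differences of −0.33 and −0.30. Neither of those libraries is in a 24 h group, and their CDKN1A levels lay near the groups of their titles. The change over time of p53 TM against p53 O6-meG was −0.32 (SE 0.13) and did not pass (adjusted p = 0.607).

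**Figure D2:**
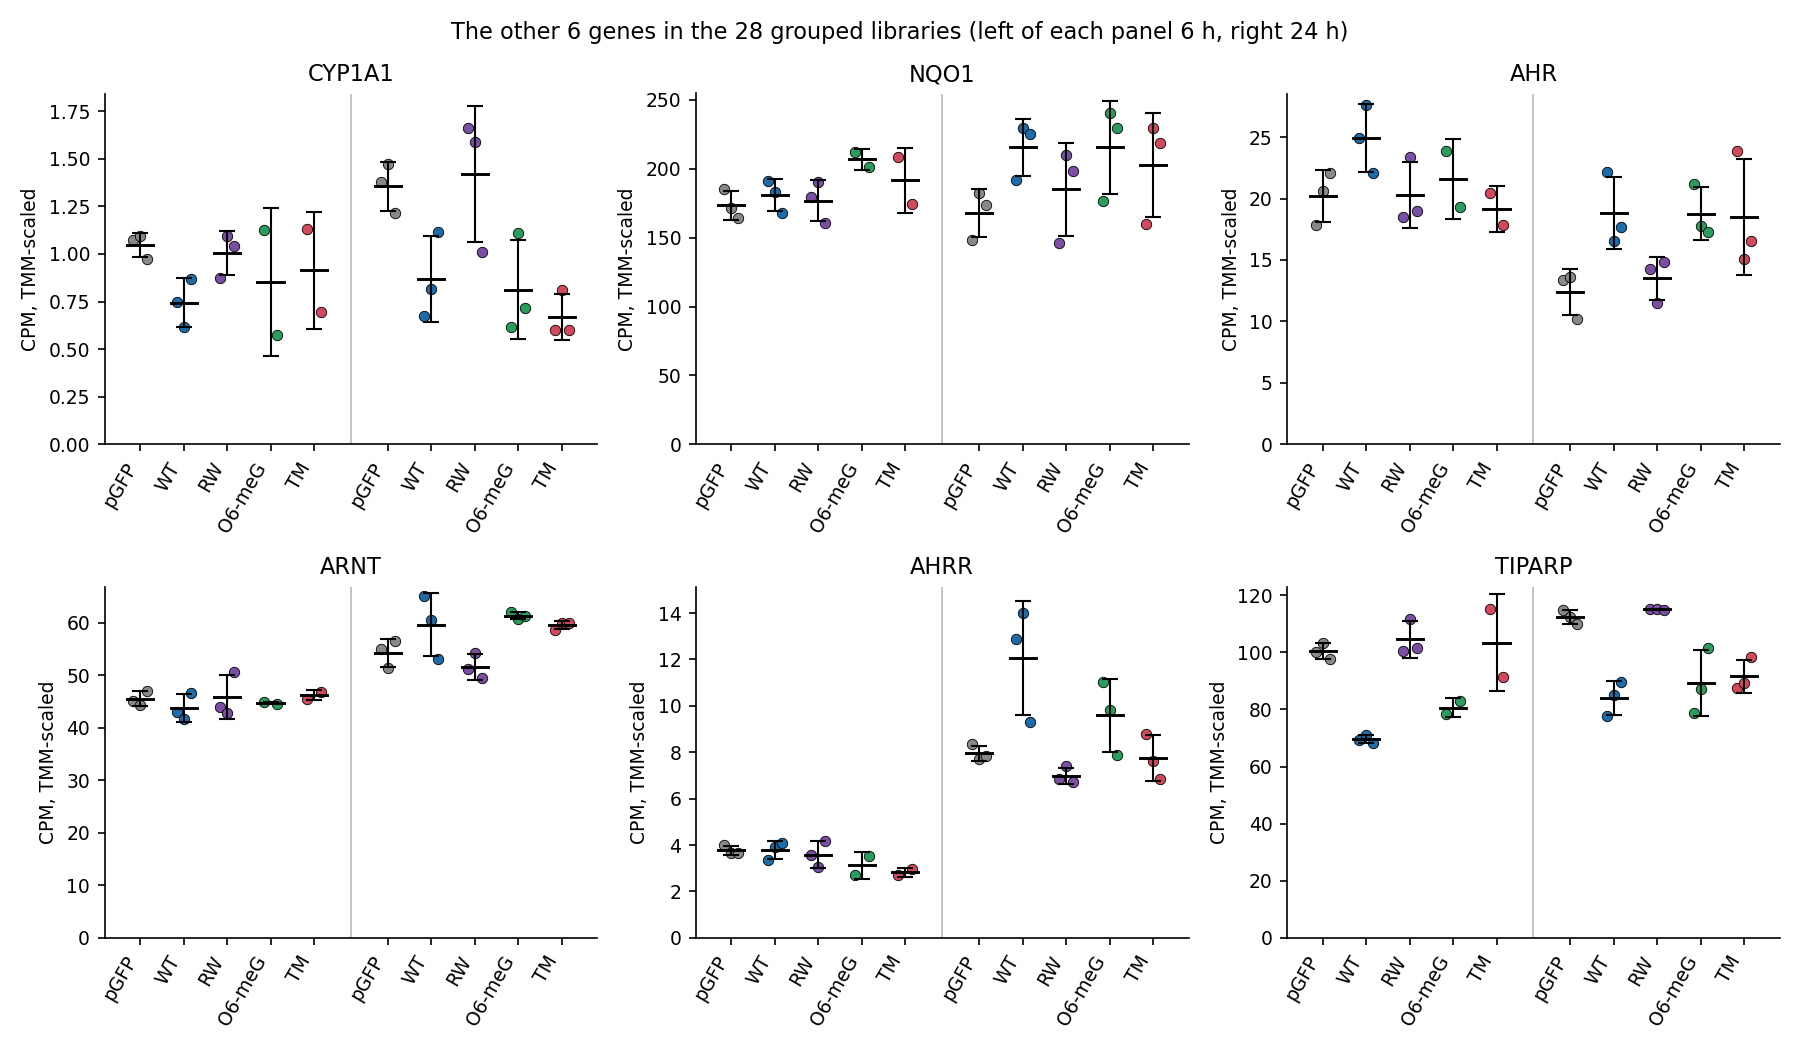
CPM (vertical axes, TMM-scaled, starting at 0) of the other 6 genes in the 28 grouped libraries, by vector group, with 6 h left and 24 h right of each line; points are libraries, horizontal lines means and bars ± SD (n = 2 or 3). AHRR is higher at 24 h in all groups, the mean of TIPARP is lowest with p53 WT at both times, and AHR at 24 h is lower with pGFP and p53 RW than with the other vectors.

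Counted over the genes, O6-bzG on the p53 O6-meG vector changed 1 of 7 at 6 h (TIPARP, up), where 4.04% of all 21335 genes tested passed, and 0 of the 6 tested at 24 h, where 9.99% passed. Against p53 WT, p53 TM changed 2 of 7 at 6 h (TIPARP up and CYP1B1 down, background 11.0%) and 1 of 6 at 24 h (AHRR down, background 21.2%). Against p53 RW it changed 0 of 7 at 6 h (background 0.150%) and 2 of 6 at 24 h (CYP1A1 and TIPARP, both down, background 10.2%). The median log2 difference of all genes in these 6 comparisons lay between −0.03 and 0.01. 

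**Figure D3:**
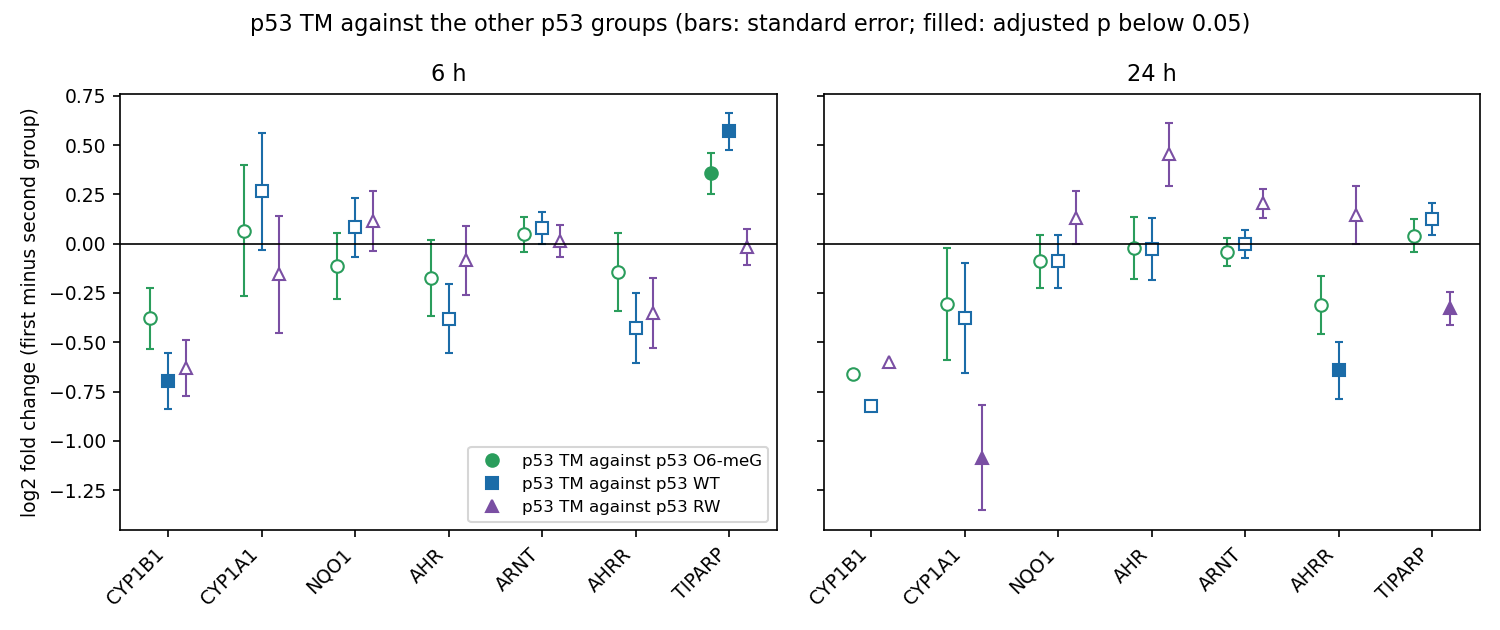
Log2 fold change (vertical axis) of each gene in p53 TM against p53 O6-meG (circles), p53 WT (squares) and p53 RW (triangles) at 6 h and 24 h; bars are standard errors, filled symbols have an adjusted p below 0.05, and CYP1B1 at 24 h is drawn without bars because its values there chose it. CYP1B1 at 6 h lies between −0.70 and −0.38 and passes against p53 WT only, and its 24 h signs against p53 WT and p53 RW were set by the choice. TIPARP passes at 6 h above p53 O6-meG and p53 WT and at 24 h below p53 RW.

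Against pGFP, p53 WT changed 1 of 7 at 6 h (background 10.3%) and 4 of 6 at 24 h, AHR, AHRR and NQO1 up and TIPARP down (background 34.9%). p53 O6-meG changed 0 of 7 at 6 h (background 4.80%) and 4 of 7 at 24 h, AHR and NQO1 up and CYP1A1 and TIPARP down (background 29.4%). p53 RW changed 0 of 7 at 6 h and 0 of 6 at 24 h (background 0.00469% at each time). p53 TM changed 0 of 7 at 6 h (background 0.183%) and 3 of 6 at 24 h, AHR up and CYP1A1 and TIPARP down (background 10.6%). p53 O6-meG and p53 WT did not differ in any of 7 at 6 h, where 0% of all genes passed, or in any of 6 at 24 h, where 0.00937% passed.

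**Figure D4:**
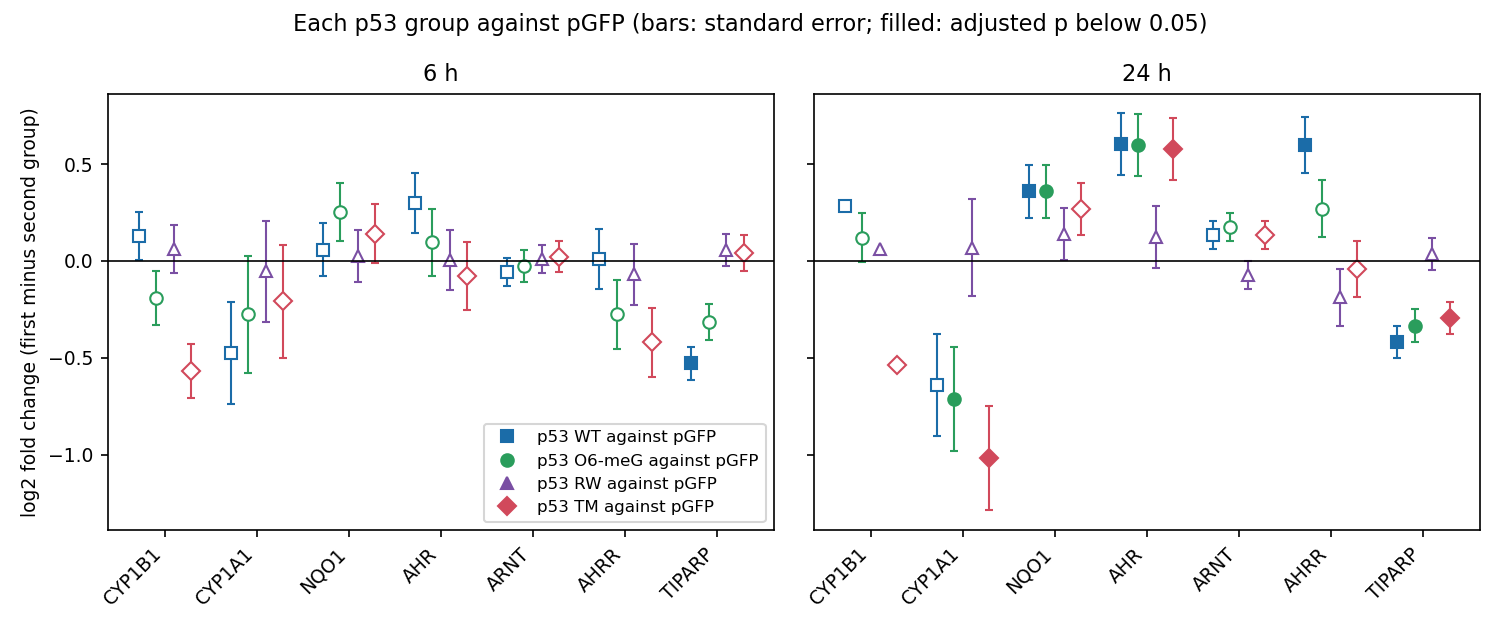
Log2 fold change (vertical axis) of each gene against pGFP with p53 WT (squares), p53 O6-meG (circles), p53 RW (triangles) and p53 TM (diamonds) at 6 h and 24 h; bars are standard errors, filled symbols have an adjusted p below 0.05, and CYP1B1 has no bars at 24 h for p53 WT, p53 RW and p53 TM, whose values chose it. With p53 RW no gene passes, and at 24 h TIPARP is below pGFP with the other 3 vectors.

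Between 6 h and 24 h, 4 of 7 genes changed with pGFP (AHRR and ARNT up, AHR and CYP1B1 down, background 41.1%) and 4 of 6 with p53 WT (AHRR, ARNT and TIPARP up, AHR down, background 45.9%). With p53 RW 2 of 6 changed (AHRR up, AHR down, background 40.0%). With p53 O6-meG 2 of 7 and with p53 TM 2 of 6 changed, AHRR and ARNT up in both (backgrounds 43.8% and 43.5%). The difference between p53 TM and p53 O6-meG changed with time for 0 of the 6 genes tested (background 0.487%), with log2 values from −0.37 for CYP1A1 to 0.15 for AHR.

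Beyond the 7, a list of 29 other genes of the AHR and NRF2 pathways held 23 that passed the filter on low counts. p53 TM against p53 O6-meG changed 1 up and 1 down at 6 h (background 4.04% of all genes tested), with a median log2 difference of 0.08 over the list against −0.03 over all genes. At 24 h it changed 0 up and 4 down (background 9.99%), with medians of −0.11 and −0.0049. ABCG2, an efflux transporter, fell at both times: at 6 h it stood at 3.43 CPM in p53 TM and 8.72 CPM in p53 O6-meG cells (−1.36, SE 0.29, adjusted p = 0.00522), and at 24 h at 11.2 and 27.1 CPM (−1.28, SE 0.22, adjusted p = 0.00059). SLC7A11, the cystine transporter, rose at 6 h from 30.4 to 56.1 CPM (0.88, SE 0.18, adjusted p = 0.0027). At 24 h haem oxygenase HMOX1 (−0.47, SE 0.13, adjusted p = 0.0229) and the prostaglandin synthase PTGS2 (−0.58, SE 0.19, adjusted p = 0.047) also fell. So did the cytochrome CYP2S1 (adjusted p = 0.0435), from 0.209 to 0.0425 CPM, but with 1 to 3 counts in each p53 TM library its fold depends on the prior count of the fit. Both 6 h calls were lost with the contradictory libraries placed by the genotype field (ABCG2 −0.34 and SLC7A11 0.49, adjusted p = 1 for each), and a fit of only these groups ended SLC7A11 at 6 h (0.92, adjusted p = 0.0705) and ABCG2, HMOX1 and PTGS2 at 24 h (adjusted p = 0.0677, 0.0526 and 0.102). PTGS2 and HMOX1 at 24 h were each lost in 3 alternatives, and in 17 and 3 of the 28 fits that left out 1 library (adjusted p up to 0.164 and 0.12). CYP2S1 was lost in 3 alternatives and 10 of those fits. At 6 h ABCG2 was lost without p53 O6-meG replicate 1 or p53 TM replicate 3 (−1.05 and −1.14, adjusted p = 0.0925 and 0.146), and SLC7A11 without p53 O6-meG replicate 3 (0.59, adjusted p = 0.128).

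Against p53 WT, 2 of the 23 rose and 1 fell at 6 h (background 11.0%), and 0 rose and 7 fell at 24 h (background 21.2%; list medians −0.03 and −0.16, all genes −0.03 and −0.01). At 6 h ABCG2 fell by 1.94 on the log2 scale (adjusted p = 1.81e-05), and SLC7A11 (0.71, adjusted p = 0.00284) and MAFG, a small partner protein of NRF2 (0.37, adjusted p = 0.0452), rose. At 24 h ABCG2 (−1.46, adjusted p = 4.26e-05), PTGS2 (−0.99, adjusted p = 0.000367), HMOX1 (−0.59, adjusted p = 0.00221), CYP2S1 (adjusted p = 0.00408), the ARNT paralogue ARNT2 (−1.50, adjusted p = 0.0105) and the amino acid transporter SLC7A5 (−0.32, adjusted p = 0.0235) fell. SERPINB2, an inhibitor of plasminogen activators and named after its values were seen, also fell, from 0.440 to 0.161 CPM (−1.41, adjusted p = 0.0442). Placing the contradictory libraries by the genotype field ended the 3 calls at 6 h (adjusted p = 0.102 for ABCG2, 0.111 for SLC7A11 and 0.23 for MAFG). MAFG was lost in 3 alternatives and in 11 of the 28 fits that left out 1 library (adjusted p up to 0.401), and SLC7A11 at 6 h without p53 TM replicate 1 (0.62, adjusted p = 0.075). At 24 h SERPINB2 was lost in 3 alternatives and 13 of those fits (adjusted p up to 0.205), and SLC7A5 in 1 alternative and 4 fits (adjusted p up to 0.102). ARNT2 was lost without p53 WT replicate 1 or p53 TM replicate 3 (−1.21 and −1.22, adjusted p = 0.0643 and 0.072). Against pGFP at 24 h, p53 WT changed 6 of the 23 up and 0 down (background 34.9%). Those 6 were ARNT2, CYP2S1, ABCG2, SLC7A5, PTGS2 and HMOX1, all among the 7 that were lower in p53 TM than in p53 WT. Both comparisons use the same p53 WT libraries, so such an overlap is partly built in, and its share over all genes was not counted. Likewise p53 O6-meG changed 5 up and 0 down (background 29.4%), and p53 TM 3 up and 0 down (background 10.6%).

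Against p53 RW, 0 of the 23 passed at 6 h (background 0.150%) and 3 rose at 24 h (background 10.2%; list medians 0.08 and 0.06, all genes 0.00 and 0.01). Those reported by name were ABCG2, from 2.75 to 11.2 CPM (2.01, SE 0.24, adjusted p = 1.71e-06), and HMOX1, from 32.9 to 51.3 CPM (0.64, SE 0.13, adjusted p = 0.00169). Among the receptor and its partners, AHR, ARNT, HSP90AA1, HSP90AB1 and PTGES3 each passed in none of the 6 comparisons of p53 TM with another p53 vector. The partner ARNT2 passed only against p53 WT at 24 h, where it was lower in p53 TM cells.

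**Figure D5:**
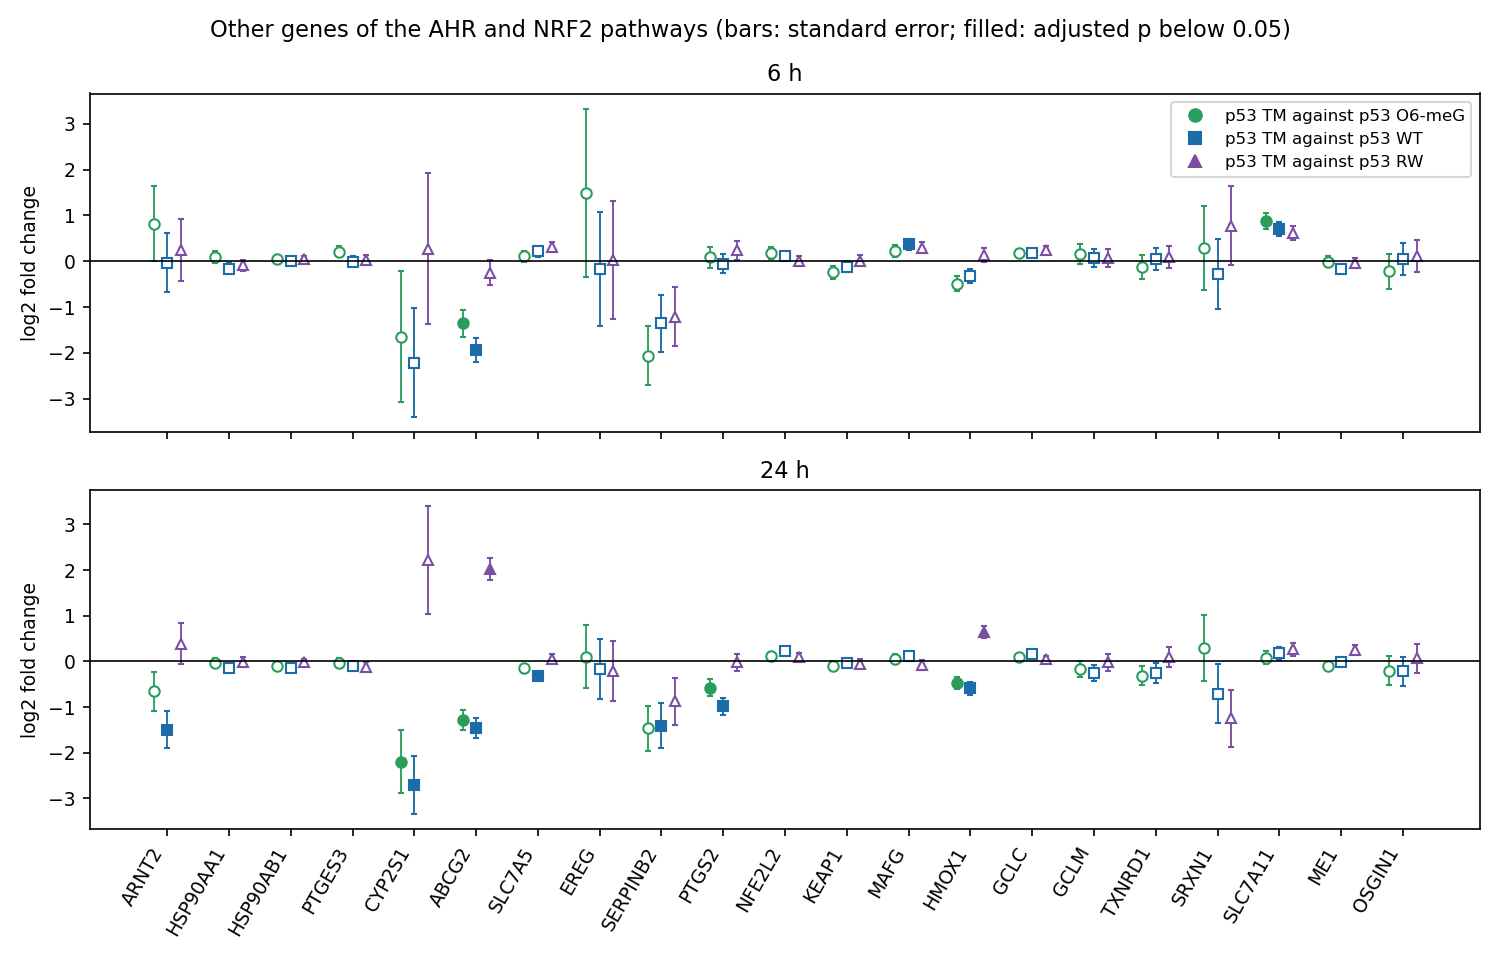
Log2 fold change (vertical axis) of other AHR and NRF2 pathway genes in p53 TM against p53 O6-meG (circles), p53 WT (squares) and p53 RW (triangles) with 6 h in the upper panel and 24 h in the lower; bars are standard errors and filled symbols have an adjusted p below 0.05. ABCG2 is below p53 O6-meG and p53 WT at both times and above p53 RW at 24 h, and genes with long bars such as CYP2S1 and EREG hold few counts.

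Likeness to CYP1B1 across the 28 libraries was measured by Pearson's r of log2(CPM + 1). Among 14173 genes with a mean of at least 1 CPM it was highest for SH2D4A (0.852), MLKL (0.848), ITGB5 (0.806), CDC20 (0.779) and LBR (0.779). Within the 15 libraries of 24 h their r was 0.845, 0.905, 0.878, 0.777 and 0.787. Over the 13 libraries of 6 h it was lower for each, at 0.817, 0.619, 0.624, 0.746 and 0.592. MLKL averaged 5.89 CPM in p53 TM cells at 24 h, 7.26 with pGFP, 9.14 with p53 WT, 8.43 with p53 RW and 9.16 with p53 O6-meG. With the pathway genes the r of CYP1B1 was 0.305 for AHR, 0.0503 for NQO1, −0.172 for TIPARP, −0.273 for AHRR and −0.473 for ARNT. CYP1A1 was below the 1 CPM limit and was not compared. These values describe libraries that share groups and times, and at 24 h same-numbered replicates deviated together. The labels name no batch. The 5 genes were taken as the highest of 14173.

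Overlapping genes could share reads with 3 of the 7, as the strand setting of the authors' counting is not stated. CYP1B1-AS1, on the opposite strand over the 5′ part of CYP1B1, held 0.280 to 0.536 CPM by group, and TIPARP-AS1, over the 5′ end of TIPARP, held 0.641 to 1.28 CPM. Neither passed the test in any of the 6 comparisons of p53 TM with another p53 vector, and both were low beside their partners. AHRR also overlaps the readthrough gene PDCD6-AHRR, and its counts are uncertain to that extent.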

How the data were processed

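H1299 cells were transfected, sorted for GFP and sequenced as total RNA after ribosomal RNA depletion, single-read and stranded. The authors deposited raw read counts per gene, made with STAR 2.5.3a on hg38 and featureCounts of Subread 1.5.2 on GENCODE v27 annotation. Whether that counting used strand is not given in the sources used here. A second table, scaled by 1 factor per library, was not used.

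The 7 genes, the pathway lists and the tests were chosen with earlier results of these data known. Groups came from the sample labels. Counts of 28 libraries were fitted together, 1 mean per group, with edgeR 4.0.16 in R 4.3.3: genes were kept by filterByExpr, libraries scaled by TMM, and the robust quasi-likelihood test was used, two-sided, with Benjamini-Hochberg adjustment over 21335 genes. A call is an adjusted p below 0.05, with no limit on fold. SE is the log2 fold change divided by the square root of F. CPM are counts relative to the TMM-scaled library total. Nothing states that the triplicates were separate transfections beyond the word biological, so p-values measure the spread between these samples.

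Depth ranged from 32302699 to 71950532 counts, median 44424643. Replicates were compared pairwise and none was a duplicate. Same-numbered 24 h libraries deviated together (30 of 30 pairs above 0.1, r = 0.333 to 0.809), so numbers pair them; at 6 h 18 of 23 pairs did. Alternatives were DESeq2 1.42.0 (size factors and Wald test), other count filters, fits of only the groups compared, a replicate block, both placements of the contradictory libraries, and each library left out in turn. A run of the model on simulated counts held no replicate effects, unlike the 24 h libraries, and its outcome is not reported here.

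Named genes were the 7, up to 6 pathway genes per p53 TM comparison by smallest p among those called, both antisense partners, and the 5 genes most correlated with CYP1B1. CDKN1A and MDM2 served as a label check. Coordinates are from GENCODE v44, which matched 38904 of 39359 genes, and promoter sequences from RefSeq. IDO1 was not analysed here, and CYP1A2, ALDH3A1, UGT1A6, IL1B and KYNU did not pass the filter. Of the pathway genes tested, 2 are counted but not reported here by name.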

Additional observations from a re-analysis of the deposited data

Results flagged for a closer look

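For SLC7A5, an amino acid transporter and one of the pathway genes, the difference between p53 TM and p53 WT had opposite signs at 6 h and 24 h. It passed the test at 24 h only. The gene was found by a search of the named genes for such a pattern, and no share over all genes was counted. At 6 h both p53 TM libraries lay above all 3 p53 WT libraries, with a log2 difference of 0.21 (SE 0.11, adjusted p = 0.279, edgeR). At 24 h all 3 p53 TM libraries lay below all 3 p53 WT libraries, with a difference of −0.32 (SE 0.10, adjusted p = 0.0235). That 24 h call was lost in 1 alternative and in 4 of the 28 fits that left out 1 library (adjusted p up to 0.102). The difference between the times was not tested.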

How the results depend on the processing

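Counts of called genes among the 7 moved by over 1.5 times under some of the 8 alternatives, and the causes were not tested. For p53 TM against p53 O6-meG at 6 h the count of 1 became 0 with every gene of at least 1 count, 0 in a fit of only the groups compared, 0 with the contradictory libraries placed by genotype field and 2 with them placed by title. Placement by genotype field also gave 0 of 2 for p53 TM against p53 WT at 6 h, 1 of 2 against p53 RW at 24 h and 2 of 4 for p53 WT between times, and turned CYP1B1 in p53 TM against p53 O6-meG at 6 h to 0.0037. The CDKN1A levels of these libraries lay near the groups of their titles, not of the genotype field. Neither library is in the groups compared for p53 TM against p53 RW at 24 h or for p53 WT between times. For p53 TM against p53 RW at 6 h the count of 0 became 1, and for p53 O6-meG against pGFP at 6 h 0 became 1, each with DESeq2's Wald test, with at least 10 counts in every library, with only the groups compared, with the replicate block and by title, the second also with DESeq2's size factors. For p53 TM against pGFP at 6 h 0 became 1 with the Wald test, only the groups compared and by title. A fit of only the groups compared gave 2 in place of 1 for p53 WT against pGFP at 6 h, and at 24 h 0 for p53 TM against p53 WT, 1 against p53 RW and 2 for p53 O6-meG against pGFP. For p53 RW between times 2 became 4 with that fit and with at least 10 counts.

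Leaving out each library in turn gave 0 to 1 call for p53 TM against p53 O6-meG, 1 to 2 against p53 WT, 0 to 1 against p53 RW and 0 to 1 for p53 O6-meG against pGFP at 6 h. At 24 h it gave 1 to 3 for p53 TM against p53 RW, 0 to 3 against pGFP and 2 to 4 for p53 O6-meG against pGFP. The 3 calls against pGFP all fell without p53 TM replicate 1. The rises of AHRR between times and the lower TIPARP with p53 WT than with pGFP passed under every alternative and every library left out. CYP1B1 at 24 h, a description, stayed between −0.85 and −0.79 against p53 WT, between −0.65 and −0.59 against p53 RW and between −0.68 and −0.63 against p53 O6-meG over the alternatives. These values chose the gene or rest on the same p53 TM libraries, so their narrow range is no support for the difference.

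Counts over all genes moved by more than 1.5 times in 31 cases. By genotype field they went from 861 to 0 for p53 TM against p53 O6-meG at 6 h and from 2338 to 15 against p53 WT, and by title to 1735 for the first. In fits of only the groups compared at 24 h they went from 2132 to 232, from 4516 to 1763 against p53 WT and from 2177 to 944 against p53 RW. The replicate block gave 1610 in place of 1024 for p53 O6-meG against pGFP at 6 h, and 10 in place of 0 for p53 O6-meG against p53 WT, where 2109 genes had an unadjusted p under 0.05. The block made 1 further change among the 7 at 24 h, AHR in p53 TM against p53 RW. With 19 to 79 counts per library, depth limits CYP1A1 most.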
